A study of Mus musculus with 2 samples.

Results

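The GATA factors and the transcription factors that work with them in red cell formation were followed through the deposited single-cell counts of mouse fetal liver. The 8 genes Gata1, Gata2, Klf1, Tal1, Lmo2, Zfpm1, Gfi1b and Nfe2 were chosen by name and not by a cut on measured values. Earlier results of these data were known at that time. All 8 were found among the 32285 genes of the tables. The cells came from E14.5 embryos of CD1, an outbred mouse stock, and were depleted of lineage-positive cells and sorted for the LSK phenotype (lineage-negative, SCA1-positive, cKIT-positive). One library held IκBα WT cells pooled from 2 embryos and the other IκBα KO cells pooled from 3 embryos of a line with a targeted knockout of Nfkbia, the gene of the NF-κB inhibitor IκBα. The study asked how hematopoietic stem and progenitor cells differ without IκBα. Each genotype had 1 library and cells of a library are not replicates, so no test was possible. Every interval given is a 95% interval and covers counting error only.

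GATA2 maintains stem and early progenitor cells, and as cells enter the erythroid lineage GATA1 takes its place at many shared DNA sites and turns the Gata2 gene down, which is known as the GATA switch. GATA1 acts in a complex with the basic helix-loop-helix factor TAL1 (SCL) and the bridging protein LMO2, and FOG1, encoded by Zfpm1, is a cofactor that binds GATA factors directly. KLF1 switches on globin and other red cell genes, and GFI1B is a transcriptional repressor that acts within the erythroid and megakaryocytic lineages. NFE2 is the larger subunit of the NF-E2 dimer that acts at globin and platelet genes.

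The libraries held 109122324 UMIs (unique molecular identifiers, which count an RNA molecule once) over 3840 barcodes in WT and 100029143 over 4928 in KO. Of these, 3458 and 4417 cells were kept, at medians of 28065 and 19560 UMIs. Nfkbia gave 1478 UMIs in the WT and 7 in the KO library, the direction of the labels. The libraries shared 7 barcodes, 0.182% of the WT and 0.142% of the KO barcodes. Cells with Y-linked UMIs and no Xist made up 0.116% of the WT and 17.4% of the KO cells, so the KO cells were mixed in sex where the WT cells were nearly all female. The titles speak of LT-HSCs (long-term stem cells), but the sort was for LSK cells, the wider pool. Ly6a, which encodes the SCA1 used in the sort, was at 27.1 CPM in WT and 34.1 in KO in the stem cell gate and at 0.577 CPM in WT and 1.30 in KO in the late erythroid range. Kit, the gene of cKIT, was at 110.2 CPM in WT and 101 in KO in the former and 4.55 CPM in WT and 6.78 in KO in the latter, so late erythroid cells held little RNA of the markers they were sorted on. Ly6a was also low in the early (1.37 CPM in WT and 1.61 in KO) and middle (0.801 and 0.401) erythroid ranges. Kit was at 62.9 CPM in WT and 57.4 in KO in the early range and 24.2 and 27.0 in the middle range.

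Cells were placed by the share of their UMIs from marker lists that hold none of the 8 factors. The stem cell gate (Hlf, Mecom, Procr and others) held 543 WT and 504 KO cells, and cells past no gate, called ungated, numbered 602 WT and 639 KO. Erythroid cells were split into an early range by Car1, Rhd, Aqp1 and like markers (596 WT and 744 KO cells), a middle range with more of these (538 WT and 688 KO) and a late range that also passed the cut on erythroblast genes such as Alas2 and Slc4a1 (575 WT and 951 KO). Neutrophil (225 WT and 263 KO) and lymphoid (116 WT and 137 KO) gates completed the 7 classes with at least 100 cells per library, and 6 smaller gates held megakaryocytes, mast cells and basophils, monocytes and dendritic cells, macrophages, endothelial cells and hepatocytes. These classes are ranges of a score rather than cell types: 14.2% of WT and 15.1% of KO cells of the stem, ungated and erythroid classes lay within 20% of the cut between the early and middle ranges, and 12.7% and 15.2% of stem and ungated cells within 20% of the stem cell cut. In the 3 erythroid ranges the median neutrophil score was at most 0.296 UMIs per 10000, against 5.81 in WT and 4.55 in KO ungated cells. The cuts were set after the scores had been seen.

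The 8 genes lie on 6 chromosomes of the mouse build GRCm38, with Gata1 at chrX:7959260-7978071 and Gata2 at chr6:88193891-88207032. The 250 bases before the start were searched for the GATA motif on both strands, spelled as GATAA with A or T in front and the same with G as the last base. The windows came from RefSeq promoters of build GRCm38.p6, whose starts can differ from those of the gene positions. That of Gata1, chrX:7967911-7968160, lies inside the span given above. The table held 8 such windows for 6 of the 8 genes. A match was found in 3 of these windows, 1 each of Klf1, Gfi1b and Tal1, and in 26.5% of all 32851 windows. These 3 windows are shown because they held a match, with the match in capitals (on the opposite strand in Klf1 and Tal1). Gata1 and Zfpm1 were also high in the erythroid ranges, and their windows held none. A match is a description of letters, not of binding.
Klf1 (chr8:84901732-84901981, plus strand): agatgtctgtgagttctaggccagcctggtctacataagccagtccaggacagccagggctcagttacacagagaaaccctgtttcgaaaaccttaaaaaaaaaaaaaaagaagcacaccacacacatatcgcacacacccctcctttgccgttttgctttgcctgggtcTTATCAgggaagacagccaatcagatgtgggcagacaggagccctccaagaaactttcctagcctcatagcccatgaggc
Gfi1b (chr2:28621983-28622232, minus strand): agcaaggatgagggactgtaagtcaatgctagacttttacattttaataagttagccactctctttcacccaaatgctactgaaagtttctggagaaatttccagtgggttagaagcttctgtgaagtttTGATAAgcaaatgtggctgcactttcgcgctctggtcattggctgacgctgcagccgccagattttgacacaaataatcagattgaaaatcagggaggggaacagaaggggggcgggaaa
Tal1 (chr4:115056176-115056425, plus strand): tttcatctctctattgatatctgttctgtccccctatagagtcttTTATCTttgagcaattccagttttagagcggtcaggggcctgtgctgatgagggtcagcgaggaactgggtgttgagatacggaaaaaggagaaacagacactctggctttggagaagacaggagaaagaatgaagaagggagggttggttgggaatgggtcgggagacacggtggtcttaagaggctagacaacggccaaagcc
The matches began at position -80 from the RefSeq start of Klf1, -120 from that of Gfi1b and -205 from that of Tal1. The windows of Gata1, Gata2 and Zfpm1 and the second window of Tal1 did not hold these letters.

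Gata1 and Gata2 lay at opposite ends of the erythroid path in both libraries. Gata1, the master regulator of erythroid genes, was at 109.7 CPM in WT (95% interval 106 to 114) and 102 in KO (97.9 to 106) in the early erythroid range. CPM is UMIs per 1000000 UMIs of the class. It was at 127 CPM in WT and 116 in KO in the middle range and 109.9 CPM in WT and 110.4 in KO in the late range. Once cells had passed the erythroid cut its level was nearly flat. In the stem cell gate it was at 2.96 CPM in WT (95% interval 1.95 to 4.30) and 3.59 in KO (2.25 to 5.43), from 27 and 22 UMIs. That level was read as background: the hepatocyte gate, which should lack Gata1, gave 25.8 CPM in WT and 22.9 in KO and the lymphoid gate 5.74 CPM in WT and 6.15 in KO. At 8500 UMIs in every cell, a Gata1 UMI was detected in 3.15% of WT and 2.16% of KO cells of the stem cell gate (median depths 16132 and 11518 UMIs before thinning) and 6.67% of WT and 14.3% of KO cells of the hepatocyte gate (43714 and 28848). The lymphoid gate gave 0.901% and 3.31% (26427 and 16402), with intervals that overlap those of the stem cell gate. Scrublet called 9.38% of WT and 22.4% of KO hepatocyte gate cells as doublets, more than in the lymphoid gate (1.72% and 0.73%). The unthinned shares were 4.79% and 3.97% in the stem cell gate.

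Gata2, by contrast, was a gene of stem, ungated and mast cell gates. It was at 36.9 CPM in WT (95% interval 33.1 to 41.0) and 47.1 in KO (41.9 to 52.9) in the stem cell gate and at 42.5 CPM in WT and 42.8 in KO in ungated cells. It fell to 15.04 CPM in WT and 14.98 in KO in the early erythroid range and to 1.02 CPM in WT and 2.10 in KO in the middle range. Its highest level was in the gate of mast cells and basophils, which keep GATA2 for their own genes, at 332 CPM in WT (95% interval 288 to 381) and 197 in KO (168 to 230.5), although this gate held only 21 WT and 34 KO cells. The megakaryocyte gate was next in WT, at 65.9 CPM, but in KO it was at 41.1, below the stem cell gate and within the interval of ungated cells. In megakaryocytes Gata1 was also high, at 107 CPM in WT and 100.1 in KO. In the endothelial gate Gata2 was at 22.4 CPM in WT (95% interval 14.3 to 33.3) and 6.98 in KO (3.01 to 13.7), from 24 and 8 UMIs. Low levels were found in the monocyte and dendritic gate, with 5.21 CPM in WT and 2.19 in KO, and in hepatocytes, with 0.585 CPM in WT and 3.59 in KO.

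**Figure D1:**
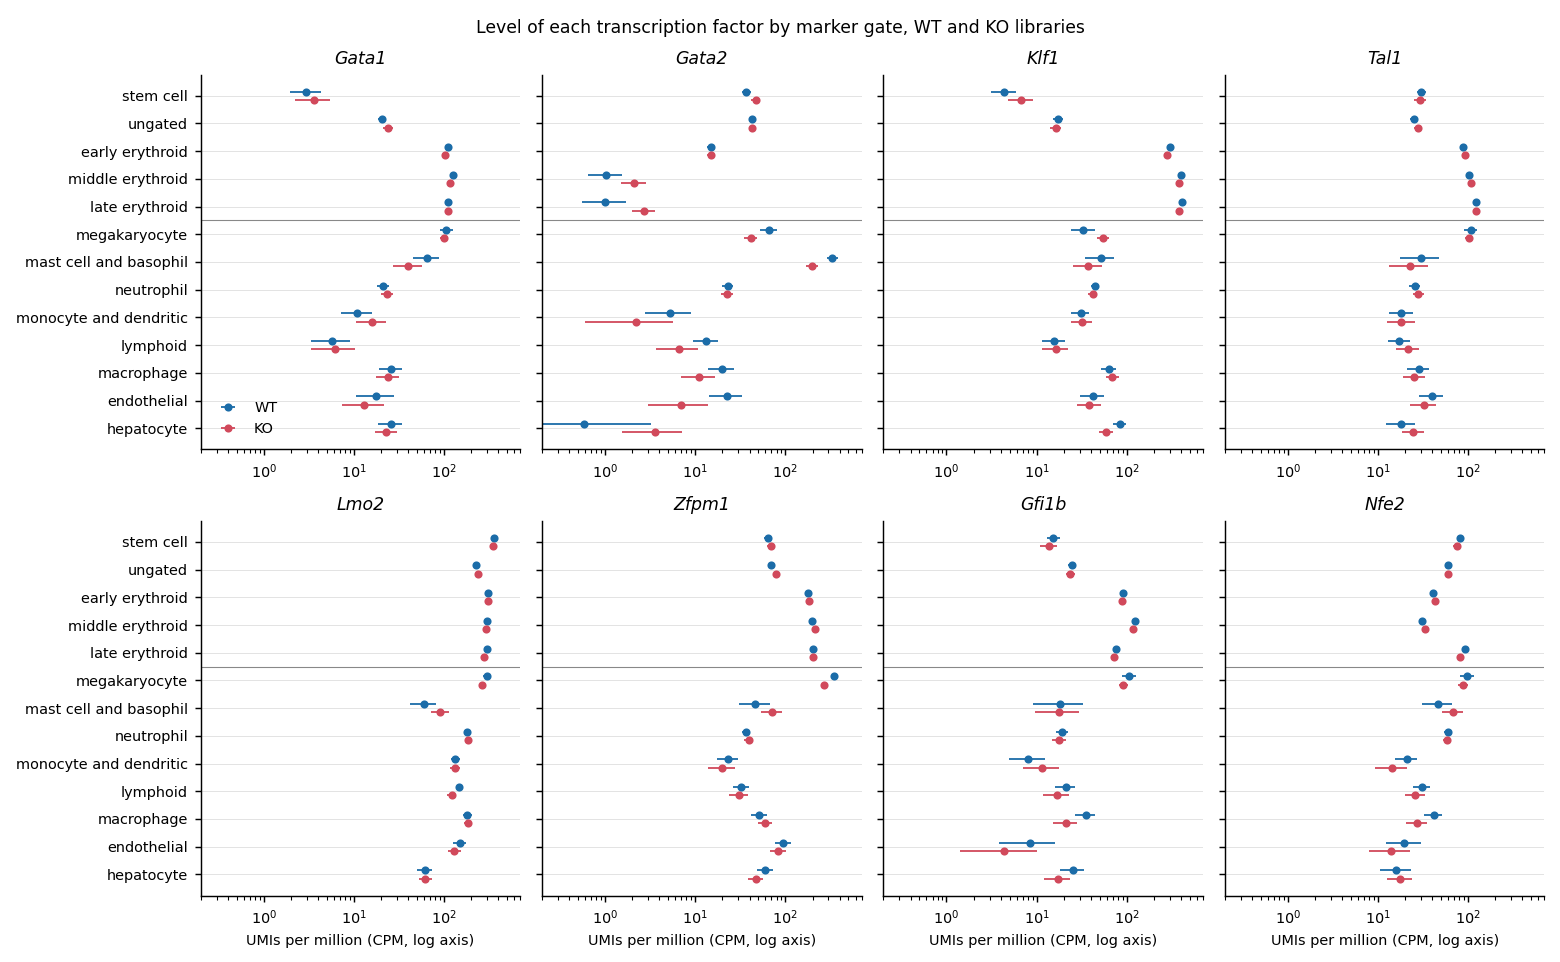
Level of each of the 8 factors in UMIs per 1000000 (log axis) in the 13 marker gates, WT in blue and KO in red, with bars for the 95% Poisson interval. The line parts the stem, ungated and erythroid classes from the other lineages; Gata2 runs from 36.9 CPM in the WT stem cell gate down to 1.01 in the WT late erythroid range, while Gata1 runs from 2.96 up to 109.9.

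The switch was then followed without the cuts between these classes, by ordering the stem, ungated and erythroid cells of both libraries on the erythroid marker score (UMIs of 11 marker genes per 10000) and cutting them into 10 bins of equal cell number. In the third bin, with a median score of 1.35, the log2 ratio of Gata2 to Gata1 UMIs was still positive, at 1.90 (1.52 to 2.30) in WT and 1.24 (0.89 to 1.59) in KO. In the fourth bin, with a median score of 3.42, it had turned negative in both libraries, at -0.53 (-0.72 to -0.34) and -0.41 (-0.62 to -0.20). In the fifth it was -3.29 (-3.55 to -3.04) and -3.10 (-3.36 to -2.84). Interpolated between bin medians, the UMIs of the 2 genes were equal at an erythroid score of 2.97 in WT and 2.91 in KO. Both values are low on a scale that reached 82.4 in WT, and both lie below the cut of 4 that opened the early erythroid range. With 20 bins, a setting added after the data had been seen, they were 4.40 and 4.61, just above that cut.

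Along the score Gata1 was up a bin before Gata2 was down. Between the third and the fourth bin Gata1 went from 9.57 CPM in WT and 22.2 in KO to 77.3 CPM in WT and 66.8 in KO, while Gata2 was at 35.7 CPM in WT and 52.4 in KO and then at 53.7 CPM in WT and 50.4 in KO. Between the fourth and the fifth bin Gata2 dropped to 11.7 CPM in WT and 12.4 in KO, and Gata1 reached 114 CPM in WT and 106 in KO. The fourth bin, where both genes were high in the sum, spanned scores from 2.00 to 9.67 in WT, and 35.6% of WT and 32.0% of KO cells were of the stem cell gate. It thus mixed cells of several classes. The libraries differed in the third bin, where the KO values of both genes were above those of WT. From the fifth bin on Gata1 stayed between 99.8 and 126 CPM over both libraries, and in the last bin Gata2 was down to 0.168 CPM in WT and 0.364 in KO.

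**Figure D2:**
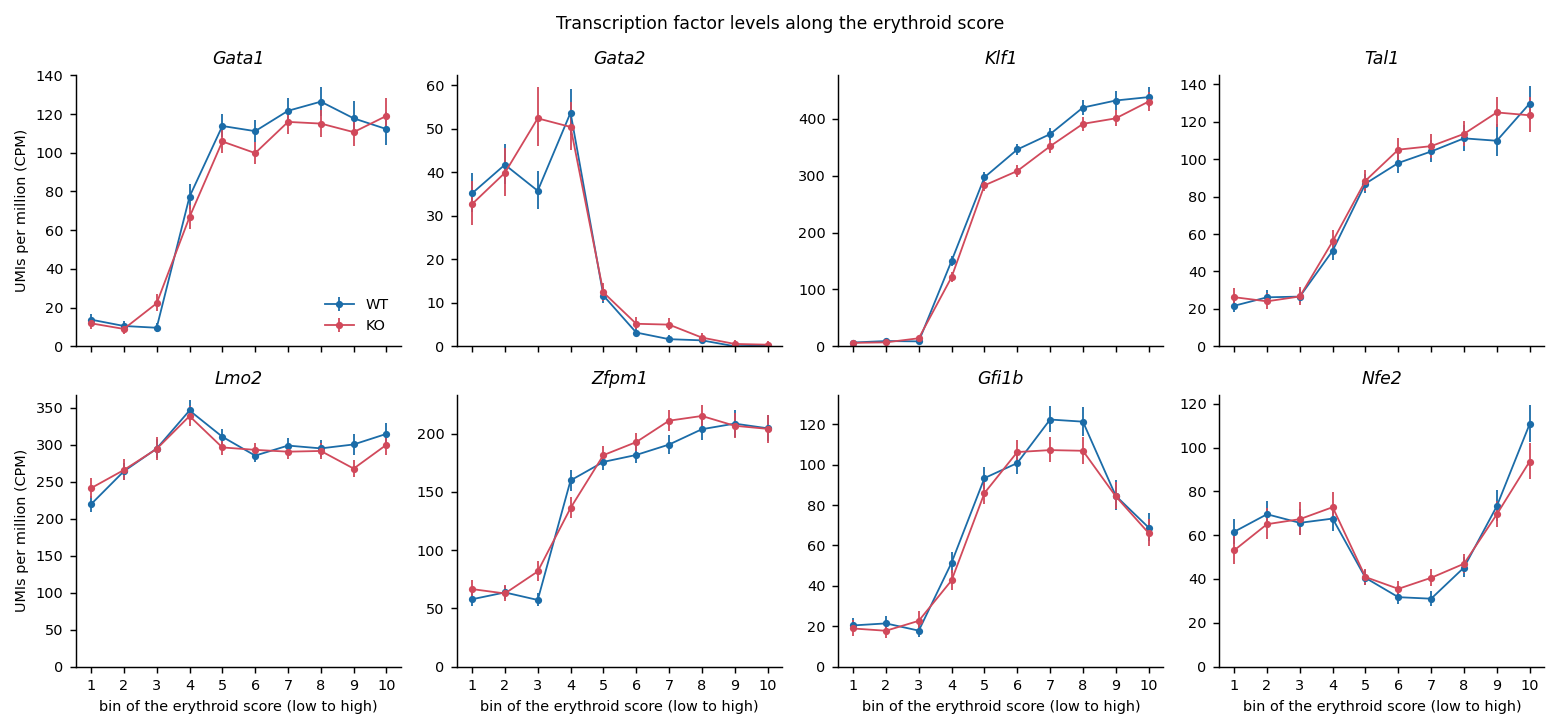
Level of each factor in UMIs per 1000000 along 10 equal-number bins of the erythroid score, WT in blue and KO in red, with 95% Poisson intervals. Gata1, Klf1, Tal1, Zfpm1 and Gfi1b climb between bins 3 and 5, Gata2 drops between bins 4 and 5, Lmo2 stays between 219.6 and 346 CPM, and Nfe2 dips and returns.

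Along the erythroid score, cells that held RNA of both GATA factors were most frequent in the bin of the switch. With every cell thinned to 8500 UMIs, both were detected in 11.7% of WT and 11.3% of KO cells of the fourth bin, and in at most 7.20% of cells of any of the first 3 bins. By gate, both were found in 36 of 574 WT cells (6.27%, 4.43% to 8.58%) and 52 of 693 KO cells (7.50%, 5.65% to 9.72%) of the early erythroid range. The difference, KO minus WT, was 1.23 percentage points (-1.72 to 4.12), an interval that holds 0. Without thinning the shares were 26.2% and 24.1% at median depths of 41854 and 29234 UMIs, so the share depends strongly on depth. The stem cell gate gave 6 of 508 WT cells (1.18%, 0.435% to 2.55%) and 4 of 371 KO cells (1.08%, 0.295% to 2.74%), and the late erythroid range 2 of 564 WT cells (0.355%, 0.043% to 1.28%) and 5 of 912 KO cells (0.548%, 0.178% to 1.27%). The mast cell and basophil gate gave 9 of 21 WT cells (42.9%, 21.8% to 66.0%) and 4 of 33 KO cells (12.1%, 3.40% to 28.2%), and the megakaryocyte gate 3 of 27 WT cells (11.1%, 2.35% to 29.2%) and 8 of 80 KO cells (10%, 4.42% to 18.8%). In the lymphoid gate there were 0 of 111 WT and 0 of 121 KO cells with both, which allows shares of up to 2.70% and 2.48% by 3 counts of the total, with 95% upper bounds of 3.27% and 3.00%.

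Whether the 2 factors sat in the same cells differed by class. Among ungated cells, Gata2 was detected more often in cells with a Gata1 UMI than in cells without one. In WT it was found in 49.2% of cells with Gata1 (36.4% to 62.1%) against 22.1% of cells without (18.6% to 25.9%), and in KO in 52.6% of cells with Gata1 (40.9% to 64.0%) against 18.5% of cells without (15.3% to 22.1%). In the early erythroid range the corresponding shares had overlapping intervals. In WT they were 10.7% of cells with Gata1 (7.57% to 14.4%) against 10.2% of cells without (6.63% to 14.8%), and in KO 13.6% of cells with Gata1 (10.3% to 17.4%) against 10.6% of cells without (7.44% to 14.6%). Ungated cells with Gata1 also more often held other erythroid factors. Zfpm1 was detected in 73.0% against 30.4% of WT and 73.1% against 32.1% of KO cells, and Klf1 in 39.7% against 5.10% and 25.6% against 5.67%. Spi1, which encodes the myeloid factor PU.1 that opposes GATA1, ran the other way, at 50.8% against 70.3% of WT and 47.4% against 69.9% of KO ungated cells. Lmo2 was found at like rates in both, 77.8% against 76.9% in WT and 73.1% against 75.05% in KO. In sum the ungated cells were at 20.6 CPM in WT and 24.0 in KO for Gata1, against 25.8 CPM in WT and 22.9 in KO in the hepatocyte gate, and the intervals overlapped in each library, so these shares describe a subset of cells (10.6% of WT and 12.9% of KO cells had a Gata1 UMI) and not the class.

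**Figure D3:**
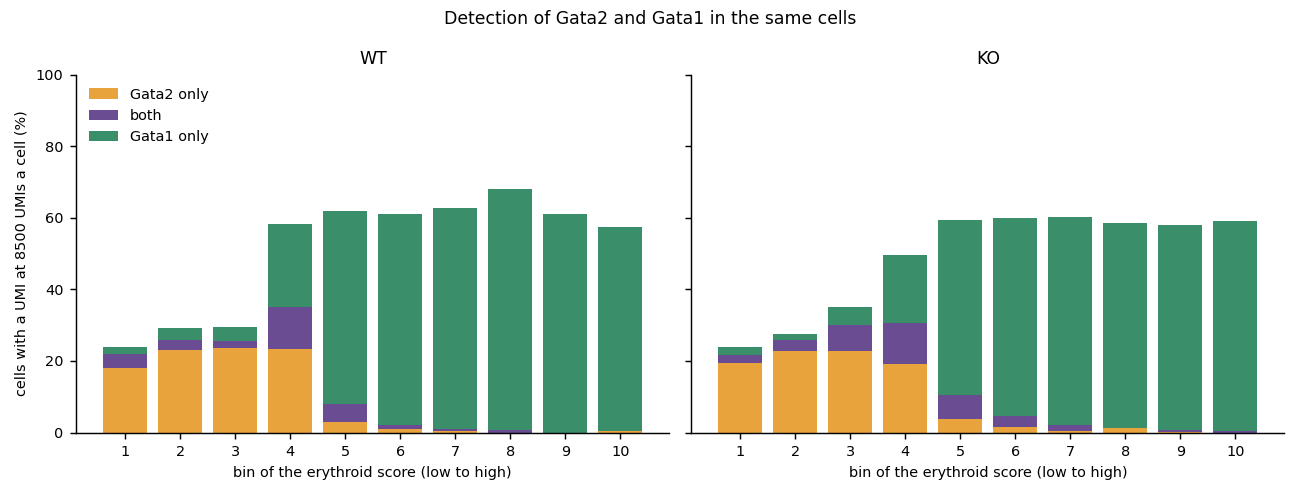
Share of cells (%) with a UMI of Gata2 only (orange), of both factors (purple) and of Gata1 only (green) in the 10 bins of the erythroid score, every cell thinned to 8500 UMIs, WT left and KO right; the rest up to 100% had neither. Cells with both peak in bin 4, at 11.7% in WT and 11.3% in KO.

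A trace of Gata2 RNA remained in the later erythroid ranges, and it was higher in the KO library. The late range gave 14 Gata2 UMIs in 9 WT cells and 46 in 21 KO cells, or 1.01 CPM in WT (95% interval 0.552 to 1.69) and 2.71 in KO (1.98 to 3.62). The 5 cells with most UMIs held 71.4% of these UMIs in WT and 54.3% in KO. When cells called as doublets by Scrublet were left out (no cell of the erythroid ranges was past a lineage gate), a setting added after the data had been seen, 1 and 5 UMIs were left, and Spi1 UMIs in the same cells went from 89 to 29 in WT and from 129 to 30 in KO. In the middle range, by contrast, 17 of 23 WT and 32 of 42 KO Gata2 UMIs were left, at 0.807 CPM (0.47 to 1.29) and 1.74 (1.19 to 2.46). At the fixed depth a Gata2 UMI was detected in 0.577% of WT and 1.19% of KO cells of the middle range. In the hepatocyte gate, which should lack the gene, it was detected in 0 of 30 WT cells (upper bound 11.6%) and in 2 of 63 KO cells (0.387% to 11%). These bounds are too wide to tell the later erythroid trace from background.

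Klf1 was low in the stem cell gate and high in all 3 erythroid ranges. It was at 299.9 CPM in WT (95% interval 293 to 307) and 276 in KO (269 to 283) in the early erythroid range and 413 CPM in WT (95% interval 402 to 424) and 382 in KO (373 to 392) in the late range. In the stem cell gate it was at 4.38 CPM in WT and 6.69 in KO, below the 15.5 CPM in WT and 16.2 in KO of the lymphoid gate and so read as background. Along the score it was at 8.62 CPM in WT and 14.1 in KO in the third bin, 150.3 CPM in WT and 122 in KO in the fourth and 297 CPM in WT and 283 in KO in the fifth, and it was still climbing in the last bin, at 438 CPM in WT and 430.4 in KO. At 8500 UMIs a cell it was detected in 87.8% of WT and 87.3% of KO cells of the early range, more often than Gata1 in the same cells (58.9% of WT and 55.3% of KO cells). Gata1 and Klf1 were detected together in 51.7% of WT and 49.1% of KO early erythroid cells.

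Of the partners of the GATA1 complex, Lmo2 was far above the lymphoid and hepatocyte gates in the stem cell gate, whereas Tal1 and Zfpm1 were closer to them. Lmo2, the bridging subunit, was at its highest in the stem cell gate, at 358 CPM in WT and 349.9 in KO, and stayed at 304 CPM in WT and 305 in KO in the early and 298 CPM in WT and 280.4 in KO in the late erythroid range. Among its lowest levels were those in the mast cell and basophil gate (59.5 CPM in WT and 91.1 in KO) and in hepatocytes (60.9 CPM in WT and 62.3 in KO). Tal1, the DNA-binding subunit, was at 30.2 CPM in WT and 29.2 in KO in the stem cell gate, against 18.1 CPM in WT and 24.7 in KO in hepatocytes, and reached 86.8 CPM in WT and 91.2 in KO in the early and 123 CPM in WT and 121 in KO in the late range. Zfpm1, the FOG1 cofactor, was at 63.7 CPM in WT and 69.7 in KO in the stem cell gate, 179 CPM in WT and 181 in KO in the early erythroid range and highest in megakaryocytes, at 349 CPM in WT (95% interval 317 to 382) and 269 in KO (252 to 288). In hepatocytes Zfpm1 was at 59.7 CPM in WT (95% interval 48.7 to 72.5) and 46.6 in KO (38.1 to 56.5), and in WT the stem cell gate was within that interval. In the neutrophil gate it was at 36.6 CPM in WT and 39.3 in KO. Gm20388, a gene model on the same strand, overlaps Zfpm1, so reads shared by both could be lost from its count.

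Gfi1b and Nfe2 changed within the erythroid ranges. Gfi1b, the repressor, rose from 17.8 CPM in WT and 22.7 in KO in the third bin to 122 CPM in WT and 107 in KO in the seventh and then declined to 68.9 CPM in WT and 66.2 in KO in the last, and by gate it was at 124 CPM in WT and 116 in KO in the middle and 75.04 CPM in WT and 72.0 in KO in the late range. Nfe2 ran the other way. It was at 67.6 CPM in WT and 72.8 in KO in the fourth bin, 31.7 CPM in WT and 35.5 in KO in the sixth and 111 CPM in WT and 93.6 in KO in the last, with 81.3 CPM in WT and 75.04 in KO in the stem cell gate. By gate its middle and late erythroid levels were 30.9 CPM in WT (95% interval 28.6 to 33.2) and 32.9 in KO (30.4 to 35.5) and 92.6 CPM in WT (95% interval 87.6 to 97.8) and 81.6 in KO (77.4 to 86.0), and these intervals did not overlap in either library. Both genes were also high in the megakaryocyte gate, Gfi1b at 107 CPM in WT and 91.5 in KO and Nfe2 at 96.6 CPM in WT and 87.5 in KO.

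Set against the stem cell gate, the sum of the 3 erythroid ranges was higher by at least 1 on the log2 scale for 5 of the 8 factors and lower for 1, Gata2, in each library. Over all genes with at least 200 UMIs, 7.68% were higher and 20.8% lower by that much in WT, and 7.27% and 18.9% in KO. For Klf1 the log2 difference was 6.36 (5.91 to 6.85) in WT and 5.67 (5.23 to 6.15) in KO. Gata1 followed with 5.30 (4.75 to 5.90) and 4.93 (4.33 to 5.602), and for both genes the stem cell level was at background. In the stem cell gate Gfi1b was at 15.3 CPM in WT and 13.7 in KO, below the lymphoid gate (20.9 and 16.7). It was above the monocyte and dendritic gate (8.01 CPM in WT and 11.5 in KO, from 20 and 21 UMIs). The endothelial gate was lower too (8.40 CPM in WT and 4.36 in KO, from 9 and 5 UMIs). Gfi1b differed by 2.69 (2.45 to 2.95) and 2.77 (2.46 to 3.10), Tal1 by 1.73 (1.55 to 1.91) and 1.85 (1.64 to 2.08), and Zfpm1 by 1.58 (1.46 to 1.70) and 1.51 (1.37 to 1.65). Gata2 differed by -2.42 (-2.63 to -2.21) and -2.71 (-2.92 to -2.49). Lmo2 and Nfe2 stayed within 1 of the stem cell gate, at -0.25 (-0.30 to -0.19) and -0.75 (-0.86 to -0.63) in WT and -0.25 (-0.31 to -0.18) and -0.57 (-0.71 to -0.42) in KO. A cell of the early erythroid range held RNA of a median of 4 of the 8 factors in WT and 5 in KO at 8500 UMIs, against 2 in the stem cell gate of each library.

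The KO and WT libraries were then compared within each gate. A difference was counted when the log2 ratio of KO to WT CPM was at least 0.5 in size, in genes with at least 200 UMIs over both libraries. Of the 56 pairs of factor and class, 45 had enough UMIs, and 0 of them passed, with log2 ratios from -0.29 for Lmo2 in lymphoid cells to 0.35 for Gata2 in the stem cell gate. Over all genes the share past this size was 1.36% in the stem cell gate, 1.13% in ungated cells and 1.95%, 1.55% and 2.27% in the early, middle and late erythroid ranges. It was 1.62% in neutrophils and 3.03% in lymphoid cells. A count of 0 among the 8 factors is near these shares and is not particular to them.

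Gata2 in the stem cell gate was 0.35 (0.12 to 0.58) on the log2 scale, from 337 WT and 289 KO UMIs, and 28.3% of WT and 32.9% of KO cells had a UMI at the fixed depth. Over the other settings the value ran from 0.19 to 0.39. It was 0.01 (-0.16 to 0.18) in ungated cells and -0.01 (-0.22 to 0.21) in the early erythroid range (0.29 with gate cuts multiplied by 1.5), and the difference between classes was not tested. Gata1 was 0.23 (-0.01 to 0.46) in ungated cells, -0.11 (-0.18 to -0.03) in the early, -0.13 (-0.21 to -0.05) in the middle and 0.01 (-0.09 to 0.10) in the late range. The log2 ratio of Gata2 to Gata1 in the early range, KO minus WT, was 0.10 (-0.13 to 0.33), and 0.40 (0.18 to 0.62) when every gate cut was raised by a factor of 1.5. Klf1 was slightly lower in KO in each of the erythroid ranges, at -0.12 (-0.17 to -0.07), -0.07 (-0.11 to -0.02) and -0.11 (-0.16 to -0.06).

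**Figure D4:**
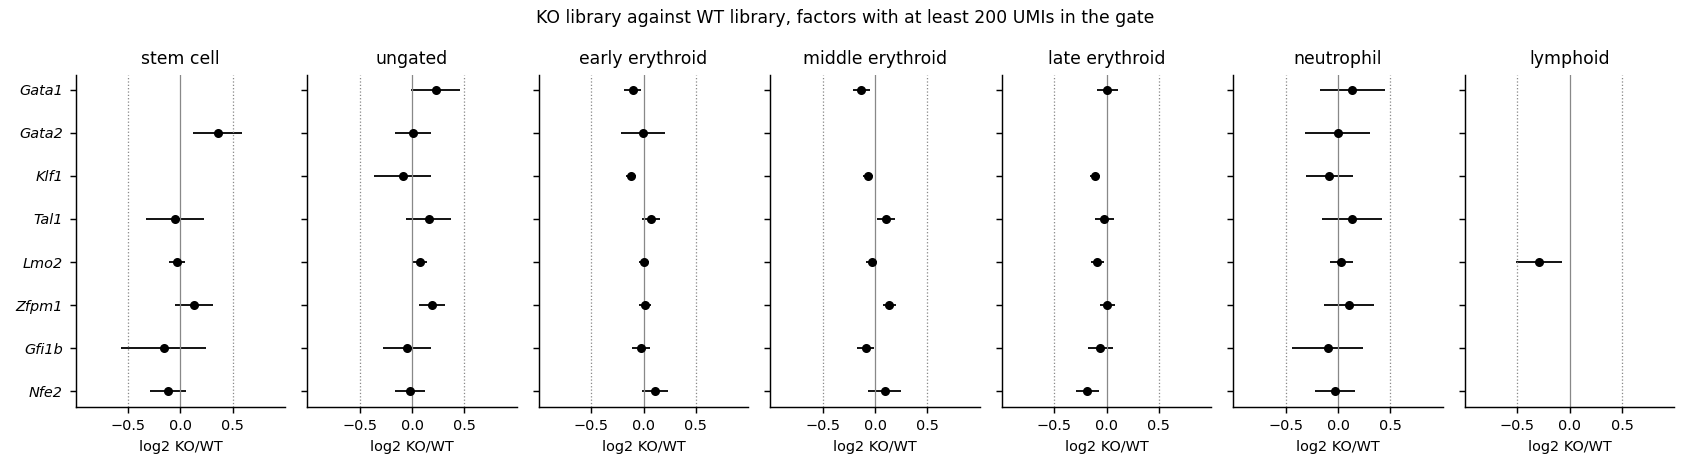
Log2 ratio of KO to WT CPM for each factor in the 7 classes with at least 100 cells per library, with 95% counting intervals; dotted lines mark 0.5 in either direction, and factors with under 200 UMIs in a class have no point. All 45 points lie between -0.29 and 0.35.

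Among the other factors, Zfpm1 was 0.14 (0.07 to 0.20) in the middle erythroid range and 0.19 (0.06 to 0.32) in ungated cells. The latter was 0.035 with female cells in both libraries and 0.32 with gate cuts multiplied by 0.75, and within KO Zfpm1 in ungated cells was 0.67 (0.43 to 0.90), male over female. Klf1, Tal1, Lmo2 and Nfe2 were also higher in male KO ungated cells, from 0.42 (0.13 to 0.70) for Nfe2 to 0.72 (0.17 to 1.24) for Klf1. The intervals of Gata1 (0.42), Gata2 (0.25) and Gfi1b held 0 there. These values came from 91 male and 487 female cells, and no share over all genes is given for this split. Whether the make-up of the ungated class differed by sex was not tested, and sex and embryo cannot be told apart in the KO pool. Between the libraries, Tal1 was 0.10 (0.02 to 0.19) in the middle range. Gfi1b was -0.09 (-0.17 to -0.01) there. In the stem cell gate, where its level was no higher than in the lymphoid gate, it was -0.16 (-0.57 to 0.24). Nfe2 was -0.18 (-0.29 to -0.07) in the late range, where its level in WT was still climbing, and -0.30 in cells with at least 2000 genes. KO late cells had a lower median erythroblast score, 15.5 against 17.4 UMIs per 10000. The part of this in the difference was not tested. In WT the late range held 16.6% of cells (15.4% to 17.9%), in KO 21.5% (20.3% to 22.8%), and the stem cell gate 15.7% and 11.4%. Shares of a sorted pool depend on the sort gate of each library. Lmo2 lay between -0.09 and 0.07 in the 6 classes other than lymphoid cells.

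Among the 6 small gates, ratios of at least 0.5 in size from at least 200 UMIs over both libraries were found in 3. Ratios from fewer UMIs, such as -1.68 (-3.05 to -0.48) for Gata2 in the endothelial gate, were not counted. No share over all genes is given for these gates, so the count has no background beside it. Gata2 was -0.75 (-1.06 to -0.44) in mast cells and basophils, and Kit in the same cells was at 218 CPM in WT and 84.9 in KO. The make-up of this gate differed between the libraries: its median mast cell and basophil score was 15.3 UMIs per 10000 in WT and 9.57 in KO, and its median neutrophil score 5.75 and 14.8. In the megakaryocyte gate Gata2 was -0.68 (-1.08 to -0.27), Zfpm1 -0.37 (-0.54 to -0.21) and Klf1 0.73 (0.24 to 1.25), from 28 WT and 100 KO cells. There too the cells differed, with a median megakaryocyte score of 124 in WT and 67.2 in KO and Spi1 at 17.6 CPM in WT and 35.0 in KO. The part of this in the ratios was not tested. A further 32 KO cells and 0 WT cells passed the megakaryocyte cut with under 3 of the markers, had a median of 5978 UMIs and were set aside. In the hepatocyte gate Klf1 was -0.50 (-0.85 to -0.15), from 142 WT and 131 KO UMIs, in cells of which Scrublet called the shares given above as doublets.

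Gata1 lies on the X chromosome, so the KO library was also split by sex. In KO cells, male over female, Gata1 was -0.06 (-0.22 to 0.09) on the log2 scale in the early, -0.00077 (-0.15 to 0.15) in the middle and 0.15 (-0.02 to 0.32) in the late erythroid range, values whose intervals all hold 0. Gata2, on chromosome 6, was -0.77 (-1.27 to -0.29) in the early range, from 42 UMIs in 152 male and 244 in 478 female cells. This was not particular to Gata2. In the same cells Nfe2 was -0.60 (-0.88 to -0.32), Lmo2 -0.12 (-0.21 to -0.03) and Zfpm1 0.15 (0.04 to 0.26). The intervals of Klf1, Tal1 and Gfi1b held 0 there. Whether male and female cells lay at like positions within the early range was not tested. The KO pool held 3 embryos, and sex and embryo cannot be told apart. With cells that had Xist and no Y-linked UMI in both libraries, KO over WT was -0.04 for Gata1 and 0.18 for Gata2 in the early range.

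The wider pathway was taken from 4 lists, with the 3 erythroid ranges summed. Of all genes, 2.12% passed the size of 0.5 in these ranges together and 1.36% in the stem cell gate. The median over all genes was -0.0054 in the erythroid ranges, against 0.019 in the stem cell gate. Of 14 partners of the GATA and TAL1 complexes, 1 was past the size in the stem cell gate and 0 in the erythroid ranges, with medians of -0.0097 and 0.02. That gene was Hdac1, a histone deacetylase, at 135 CPM in WT and 81.2 in KO stem cells, -0.73 (-0.88 to -0.58) on the log2 scale, and -0.46 (-0.51 to -0.40) in the erythroid ranges. The highest partners were Runx1 in the stem cell gate, 0.13 (-0.03 to 0.28), and the demethylase gene Kdm1a in the erythroid ranges, 0.19 (0.13 to 0.25).

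Of 15 other erythroid and megakaryocyte regulators, 12 had enough UMIs in the stem cell gate and 15 in the erythroid ranges, and 0 and 0 passed the size. The lowest in both was Stat5a, a signal transducer of erythropoietin and other cytokines, at -0.43 (-0.82 to -0.06) and -0.20 (-0.32 to -0.08). The highest were Myb, a progenitor factor, at 0.11 (-0.00041 to 0.22) in the stem cell gate, and Fli1, a megakaryocyte factor, at 0.33 (0.07 to 0.59) in the erythroid ranges. Of 17 erythroid target genes, 8 could be read in the stem cell gate, where 3 were higher and 1 lower past the size, all 4 of them globins: Hba-a2 was 0.75 (0.63 to 0.88), and Hbb-bt -0.78 (-0.83 to -0.74). In the erythroid ranges 1 of 17 passed, the beta globin gene Hbb-bs at 0.50, and the lowest was Epor, the erythropoietin receptor, at -0.03 (-0.08 to 0.02). The globin copies are near-identical in sequence, so the split between them is uncertain. Hbb-bt gave 13925 WT and 5426 KO UMIs in the stem cell gate, and their source was not tested.

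Of 6 opposing myeloid and lymphoid factors, 2 could be read in the stem cell gate and 2 in the erythroid ranges. Spi1 was at 141 CPM in WT and 141 in KO in the stem cell gate, -0.01 (-0.13 to 0.12) on the log2 scale, and at 16.8 CPM in WT and 24.8 in KO in the early erythroid range. In the erythroid ranges together it was 0.30 (0.15 to 0.44), and the highest of the list, Irf8, was 0.56 (0.15 to 0.98) from 84 and 119 UMIs. Irf8 is also a marker of the monocyte and dendritic gate. Scrublet called 10.1% of WT and 11.3% of KO cells of the early range as doublets. Without these calls Spi1 in the early range was at 9.40 CPM in WT and 15.8 in KO. Gfi1, the other readable gene in the stem cell gate, was 0.03 (-0.25 to 0.31).

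The genes most like 3 of the factors were sought over the 13 gates of both libraries, 26 points that share library depth and any free RNA, by Pearson correlation of log2(CPM + 1) among 8522 genes with at least 20 CPM in a gate. For Gata1 they were Cited4 (r = 0.94), a transcriptional coactivator, Smim1 (0.90), whose human counterpart carries the Vel blood group, and Cox17 (0.90), a copper chaperone of cytochrome oxidase. For Gata2 they were Inpp4b (0.92), a phosphoinositide phosphatase, Rab37 (0.92), a small GTPase, and Slc18a2 (0.90), a vesicular monoamine transporter. Every gate had equal weight, and Gata2 was by far highest in the mast cell and basophil gate (332 CPM in 21 WT and 197 in 34 KO cells). The part of that gate in this ranking was not tested. For Klf1 they were Steap3 (0.98), an iron reductase, Icam4 (0.97), an adhesion molecule of red cells, and Tspo2 (0.96), a membrane protein of erythroid cells. Between the factors themselves the correlation of Gata1 with Gata2 was -0.11 and that of Gata1 with Klf1 0.85, and the pair with the highest value of the 28 pairs was Tal1 with Zfpm1 (0.93).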

How the data were processed

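Single-cell 3' libraries (10x Genomics, v3 chemistry) of 1 IκBα WT and 1 IκBα KO pool were counted by the authors with Cell Ranger 6.0.0 against mm10, per the submitters' processing notes. The deposited values are UMI counts per gene and barcode, with no normalization. Cells with at least 1000 genes and at most 20% mitochondrial UMIs were used. Doublets were called with Scrublet, 3.90% of WT and 5.80% of KO cells, and kept. Each cell was assigned by its UMIs per 10000 from marker lists without the 8 factors. 3.12% of WT and 3.62% of KO cells passed 2 or more lineage gates and went to the one they exceeded most, and cells past a lineage gate were in no stem, ungated or erythroid class. Counts were summed per library and class and divided by all UMIs of the class to give CPM, so a change shared by all genes is not seen. Levels have exact Poisson, shares Clopper-Pearson and ratios exact conditional intervals at 95%. Of these only the ratio intervals were tested on simulated data, drawn from the Poisson model that they assume. Shares of cells were taken after thinning each cell to 8500 UMIs, without shallower cells. Python 3.11.15, numpy 2.4.6, scipy 1.17.1, pandas 2.3.3 and scanpy 1.11.5 were used, with gene positions from GENCODE vM21.

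All 8 factors were described. From each list the genes highest and lowest in KO over WT and Spi1 were named, and 3 genes each as most like Gata1, Gata2 and Klf1. The factors and lists were chosen with earlier results of these data known. Alternatives changed the filter on genes per cell, doublets, gate cuts, thinning, sex, scaling, minimum UMIs, fold and bins.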

Additional observations from a re-analysis of the deposited data

How the results depend on the processing

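Each log2 KO over WT value of a factor was recomputed under every alternative, and 465 of 486 recomputed values stayed within the counting interval of the reported one. The erythroid ranges were higher than the stem cell gate for 5 factors and lower for 1 under all alternatives run. The erythroid score at which Gata1 passed Gata2 was 3.96 in WT and 3.76 in KO with gate cuts multiplied by 0.75, 3.51 in WT with cuts multiplied by 1.5, 3.71 in WT and 4.09 in KO with gates on thinned cells, and 3.51 in KO with female cells. With 20 bins, a setting added after the data had been seen, it was 4.40 in WT and 4.61 in KO. With cuts multiplied by 1.5 the log2 ratio of Gata2 to Gata1 in the early erythroid range, KO minus WT, was 0.40. Without thinning, the KO share of early erythroid cells with both factors minus that of WT was -2.12 percentage points, at unequal depth.

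The count of factor and class pairs past the fold between KO and WT was 2 with gates on thinned cells (Gfi1b -0.65 in the stem cell gate, Klf1 -0.72 in lymphoid cells) and 2 with female cells (Klf1 -0.55 and Gfi1b -0.66 in neutrophils). It was 4 at a minimum of 20 UMIs (Klf1 0.61 in the stem cell gate, and Gata2 1.04, 1.42 and -0.999 in the middle and late erythroid ranges and lymphoid cells). It was 1 at a fold of 0.3 (Gata2 in the stem cell gate). Shares over all genes are given above for the main setting only, so these counts have no background beside them. The median of the erythroid targets in the erythroid ranges was 0.15 with CPM computed without haemoglobin, mitochondrial and ribosomal protein genes and 0.060 with the mean over cells of CPM. Under that mean, 1 of the other regulators and 0 of the targets passed the fold there. At a minimum of 20 UMIs the median of the targets in the stem cell gate was -0.021, and 3 of the opposing factors passed the fold in the erythroid ranges. A lower minimum admits more genes, and the causes of the other shifts were not tested. No paired analysis was possible because WT and KO were sequenced as 1 library each.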
